A study of Homo sapiens with 42 samples.

Results

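The genes described here are the regulators and marker genes of the epithelial-mesenchymal transition, and the measurement is open chromatin by ATAC-seq, in which a transposase cuts accessible DNA and the cut fragments are sequenced. The 10 genes are ZEB1, ZEB2, SNAI1, SNAI2, TWIST1, TWIST2, VIM, CDH1, CDH2 and EPCAM. Every region that the deposited annotation assigned to one of these symbols was taken, without regard to how it changed. This gave 52 of 69565 annotated regions in PC9, 53 of 76952 in H1975, 25 of 30709 in HCC827 and 50 of 65264 in HCC2935, or 180 of 242490 in all. They formed 85 places in the genome, of which 19 had a region in all 4 tables and 40 in 1 table only. All 180 regions passed the filter on low counts. The symbol is that of the nearest annotated transcript start within 100 kb, so an intronic region may lie inside a neighbouring gene.

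During an epithelial-mesenchymal transition, epithelial cells lose their adherens junctions and apical-basal polarity and take up a spindle-shaped, motile form. The zinc-finger factors ZEB1, ZEB2, SNAI1 (Snail) and SNAI2 (Slug) bind E-box sequences in epithelial promoters, that of CDH1 among them, and repress them. The basic helix-loop-helix factors TWIST1 and TWIST2 act in the same programme. CDH1 encodes E-cadherin, the adhesion molecule of epithelial adherens junctions, and EPCAM an epithelial surface glycoprotein. CDH2 encodes N-cadherin and VIM the intermediate filament protein vimentin, which are used as markers of mesenchymal cells. In EGFR-mutant lung adenocarcinoma this transition is known to accompany some forms of tolerance to EGFR inhibitors.

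All 4 lines are EGFR-mutant human lung adenocarcinoma lines. The 42 libraries fell into 14 groups of 3, given as biological triplicates by the labels. Control cells were grown without drug for 21 days and then with DMSO for 3 days. Drug-tolerant persister (DTP) cells were kept in 500 nM osimertinib, an inhibitor of EGFR, for 24 days. In the group called combo, the small molecule AZD5153 was given at 150 nM for 3 days after 21 days of 500 nM osimertinib. The labels do not state whether osimertinib was kept on during those last days. PC9 and H1975 also had a group called AZD5153, which was drug-free for 21 days and then had 150 nM AZD5153 for 3 days. Each group is 1 line under 1 treatment, so a line stands for a single tumour.

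Total counts per library ran from 3989287 to 5193390 in PC9, 6200672 to 10062505 in H1975, 1724680 to 4242868 in HCC827 and 3968690 to 8066287 in HCC2935. Within groups, counts varied by 0.96 to 1.04 times the counting variance in PC9, 0.97 to 1.28 times in H1975, 1.21 to 8.80 times in HCC827 and 1.18 to 1.85 times in HCC2935. The PC9 libraries of a group, and some of H1975, thus differed by no more than the sampling noise, and p-values in both lines measure little beyond counting error. For this reason the number of calls was counted again after adding up the libraries of a group, so that each group was 1 sample and the spread came from HCC2935 (called summed libraries here). Lung epithelial marker genes, the keratins KRT7, KRT8, KRT18 and KRT19 among them, had a promoter region for 7 or 8 of 8 genes in each line, and haematopoietic markers for 0 to 2 of 5. Fibroblast markers had one for 2 to 4 of 7 genes and endothelial markers for 1 to 3 of 4, so such regions were not limited to epithelial markers.

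The H1975 libraries labelled AZD5153 stood apart. Over 191202 regions their mean log2 levels correlated with those of the H1975 control at r = 0.74, against r = 0.89 for the same pair of groups in PC9 over 126506 regions. Medians of the log2 change over 10 Mb bins ran from -1.39 to 1.55 in H1975 and from -0.27 to 0.23 in PC9. The summed level of the lung epithelial marker promoters was 119 to 124 CPM (read counts scaled to library size) in these libraries and 197 to 210 CPM in the control. A mix-up of samples or another cell line behind these libraries was not tested, and their values are those of the libraries so labelled. Results that rest on these libraries name them, and the H1975 counts for DTP and combo were the same without them (42 and 16 regions, an alternative chosen after seeing the data). Wide shifts were also present in DTP cells, with bin medians up to 1.48 in H1975 and from -1.05 to 0.95 in HCC2935. With the bin median removed, the called member regions of DTP cells numbered 39 in H1975 (42 before), 26 in HCC2935 (31 before) and 26 in PC9 (24 before), and for regions named below a call that ended is stated.

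RefSeq sequence of the 250 bases before the transcript start was held for 5 of the 10 genes. It is shown for the ZEB1 start, which had a region in all 4 lines, and for the TWIST2 and CDH2 starts, where regions were higher in HCC2935 DTP cells. The window is given on the gene's strand with its GRCh38.p14 coordinates, and capitals mark the motifs searched on both strands, namely the E-box CACCTG or CAGGTG, the GC box GGGCGG or CCGCCC and the CCAAT box CCAAT or ATTGG.
ZEB1 chr10:31318167-31318416 (+): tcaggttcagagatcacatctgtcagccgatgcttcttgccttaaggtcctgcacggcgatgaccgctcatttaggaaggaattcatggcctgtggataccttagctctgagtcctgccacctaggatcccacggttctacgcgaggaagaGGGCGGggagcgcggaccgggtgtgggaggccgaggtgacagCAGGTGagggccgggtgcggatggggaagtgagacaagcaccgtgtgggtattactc
TWIST2 chr2:238847835-238848084 (+): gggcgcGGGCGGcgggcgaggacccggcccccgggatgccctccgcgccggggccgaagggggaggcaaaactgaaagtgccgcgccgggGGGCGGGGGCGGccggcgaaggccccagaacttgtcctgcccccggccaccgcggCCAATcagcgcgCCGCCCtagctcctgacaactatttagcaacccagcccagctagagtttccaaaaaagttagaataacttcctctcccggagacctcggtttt
CDH2 chr18:28177131-28177380 (-): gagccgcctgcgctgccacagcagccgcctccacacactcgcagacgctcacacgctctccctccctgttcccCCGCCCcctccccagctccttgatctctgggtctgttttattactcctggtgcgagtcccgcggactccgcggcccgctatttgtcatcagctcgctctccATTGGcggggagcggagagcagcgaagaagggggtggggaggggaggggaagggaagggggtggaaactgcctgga
The ZEB1 window held 1 E-box, which begins 57 bases before the start, and 1 GC box, and all 250 bases lay inside the start region of every line. The TWIST2 window held 4 GC boxes and 1 CCAAT box and lay inside regions of PC9 and HCC2935. The CDH2 window held 1 GC box and 1 CCAAT box, and 224 of its 250 bases lay inside an HCC2935 region. Over 35116 RefSeq windows of this length an E-box was present in 17.5%, a GC box in 42.6% and a CCAAT box in 32%. Among the 12 windows of the 5 genes these motifs were present in 2, 8 and 3 windows.

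The microRNAs of the miR-200 family are known repressors of ZEB1 and ZEB2 transcripts, and ZEB1 is known to repress their genes in turn. Their mature sequences are given because the promoters of their genes were measured as a list of their own, with the seed (bases 2 to 8) in capitals.
hsa-miR-200b-3p: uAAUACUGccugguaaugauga
hsa-miR-200c-3p: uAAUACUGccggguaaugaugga
hsa-miR-429: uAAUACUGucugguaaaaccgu
hsa-miR-200a-3p: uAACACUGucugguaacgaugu
hsa-miR-141-3p: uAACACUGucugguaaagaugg
By seed they form a group of 3 with AAUACUG (miR-200b, miR-200c and miR-429) and a group of 2 with AACACUG (miR-200a and miR-141).

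Levels at the lead promoters are described first. The lead promoter is, for each gene and line, the promoter-annotated region with the highest mean level over control and DTP. All regions were 502 bases wide, so CPM values of different genes can be set side by side. In every line CDH1 and EPCAM had the highest mean levels in control cells. The CDH1 lead promoter had 18.6, 20.7 and 20.6 CPM in PC9, 31.5, 32.9 and 30.6 CPM in H1975, 23.5, 23.9 and 31.3 CPM in HCC827 and 22.4, 26.0 and 20.8 CPM in HCC2935. The EPCAM lead promoter had 32.8, 31.4 and 34.7 CPM in PC9, 21.2, 20.9 and 23.9 CPM in H1975, 15, 14.8 and 24.0 CPM in HCC827 and 34.2, 33.4 and 38.7 CPM in HCC2935. CDH1 was below EPCAM without overlap in PC9 and HCC2935, above it without overlap in H1975, and the ranges overlapped in HCC827.

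The repressors' promoters were open in the same control cells at lower levels. SNAI1 reached 14.9 to 15 CPM in PC9 and 9.88 to 13 CPM in H1975. The ZEB1 start region had 11.1 to 11.4 CPM in PC9, 8.31 to 9.01 CPM in H1975, 8.78 to 11.3 CPM in HCC827 and 2.63 to 4.63 CPM in HCC2935, so HCC2935 lay below the other 3 lines without overlap. SNAI2 had 9.15 to 10.5 CPM in PC9 and 11.5 to 13.7 CPM in H1975. VIM, with 9.66 to 11.8 CPM in PC9 and 9.01 to 9.68 CPM in H1975, was near ZEB1. ZEB2 and TWIST2 lay lowest in PC9, at 4.37 to 5.34 CPM and 1.79 to 4.32 CPM, with TWIST1 at 3.65 to 5.75 CPM. The TWIST1 range overlapped both others, and that of TWIST2 lay just below that of ZEB2. A lead promoter of TWIST1 was present in the PC9 table alone and one of CDH2 in the H1975 and HCC2935 tables. HCC827 had none for VIM, ZEB2, TWIST1 and CDH2. Of 113 pairs of a group and a lead promoter, 97 had a peak call in all 3 libraries.

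**Figure D1:**
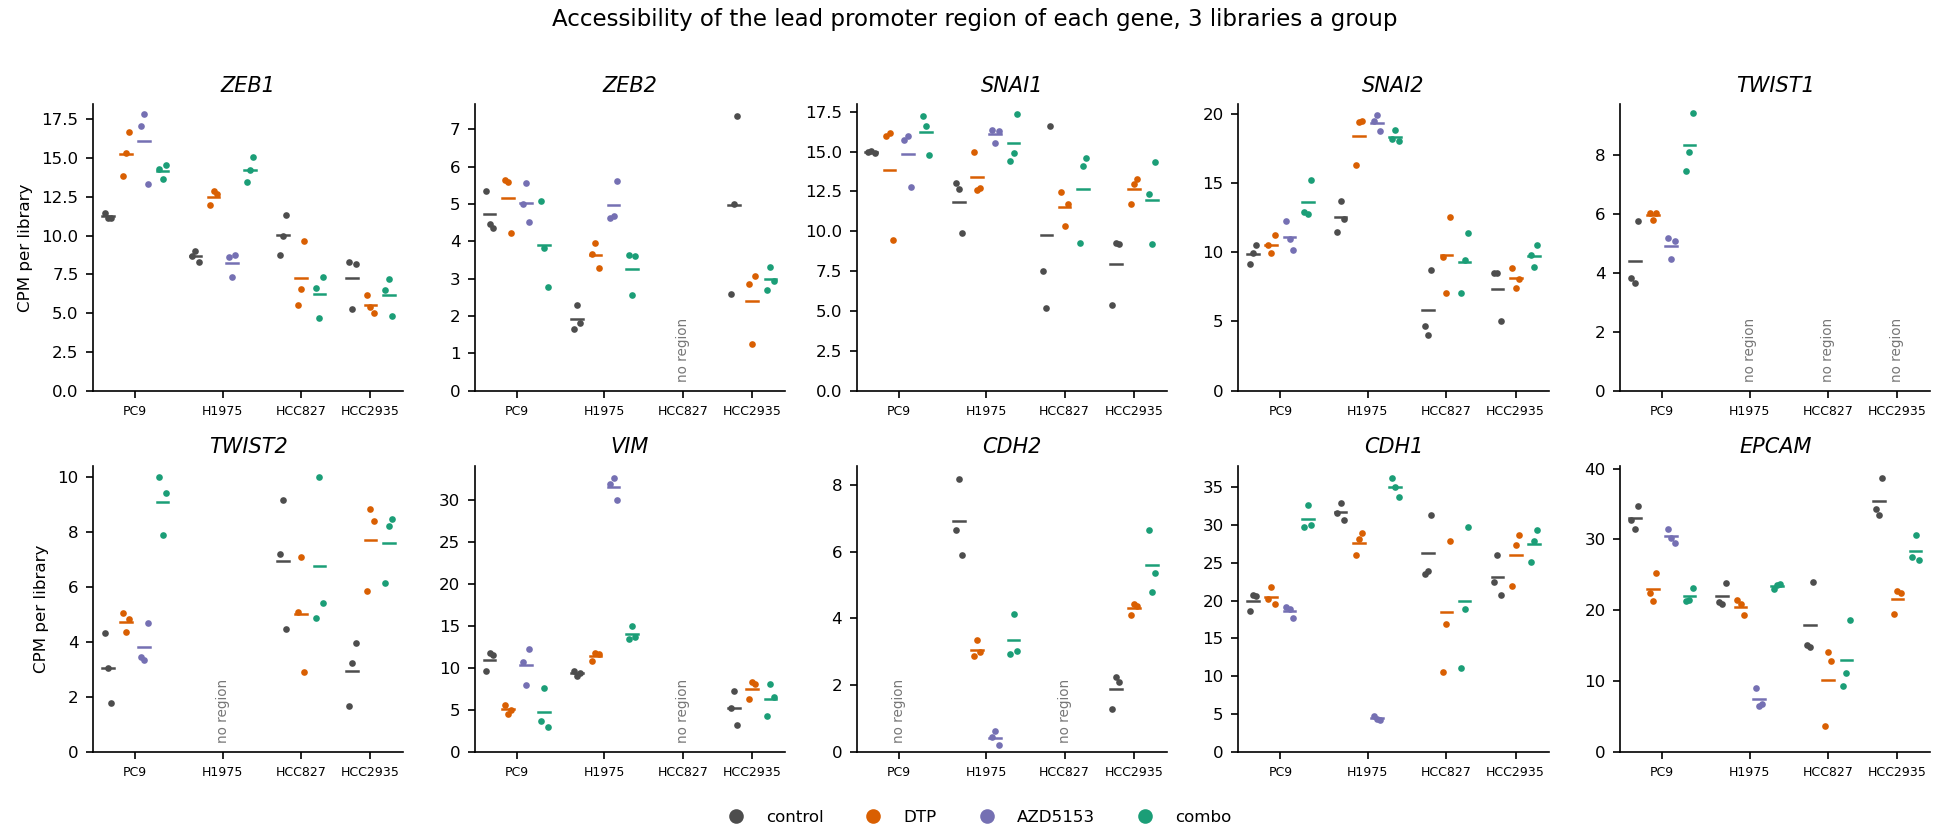
Level of the lead promoter region of each gene in CPM (vertical axis) for each line and group (horizontal axis), with dots for the 3 libraries and a bar for their mean. CDH1 and EPCAM lie highest in control cells of every line, and CDH1 lies between 4.28 and 4.73 CPM in the H1975 libraries labelled AZD5153. The lead regions of a gene can differ in place between lines, and "no region" marks a line whose table has none.

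In persister cells the comparison asks how these regions differ from drug-free cells. In PC9, 24 of the 52 regions passed the test (9 higher, 15 lower; edgeR quasi-likelihood test, adjusted p under 0.05), a share to be read against 31.7% of all tested regions, 15.5% higher and 16.2% lower. In H1975, 42 of 53 passed (14 higher, 28 lower) against 51.9% of all tested regions (24.8% higher, 27.0% lower). In HCC2935, 31 of 50 passed (21 higher, 10 lower) against 37.5% (18.4% higher, 19.0% lower). Annotated regions were called more often than all tested regions, at 38.0% in PC9, 62.7% in H1975 and 45.4% in HCC2935. With summed libraries PC9 had 11 calls, H1975 27 and HCC2935 25. In HCC827 none of the 25 regions passed in edgeR, where 0.017% of all tested regions did, and 3 had an unadjusted p under 0.05. DESeq2 also called 0 there. HCC827 libraries with the same replicate number varied together, and with the replicate number as a block 2 member regions passed.

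The counts are given apart for the epithelial genes and the other 8 genes, and the difference between these sets was not tested. For CDH1 and EPCAM together, 4 regions were higher and 11 lower of 22 in PC9 (median log2 change -0.39), and 3 higher and 17 lower of 22 in H1975 (median -0.73). In HCC2935, 6 were higher and 7 lower of 22 (median -0.03). For the other 8 genes, 5 were higher and 4 lower of 30 in PC9 (median 0.11), 11 higher and 11 lower of 31 in H1975 (median -0.03) and 15 higher and 3 lower of 28 in HCC2935 (median 0.77). The medians over all tested regions were 0.02, 0.02 and -0.02 in the 3 lines. HCC827, with no calls, had a median of -0.49 over 15 epithelial regions and 0.01 over 10 others, beside -0.01 over all.

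**Figure D2:**
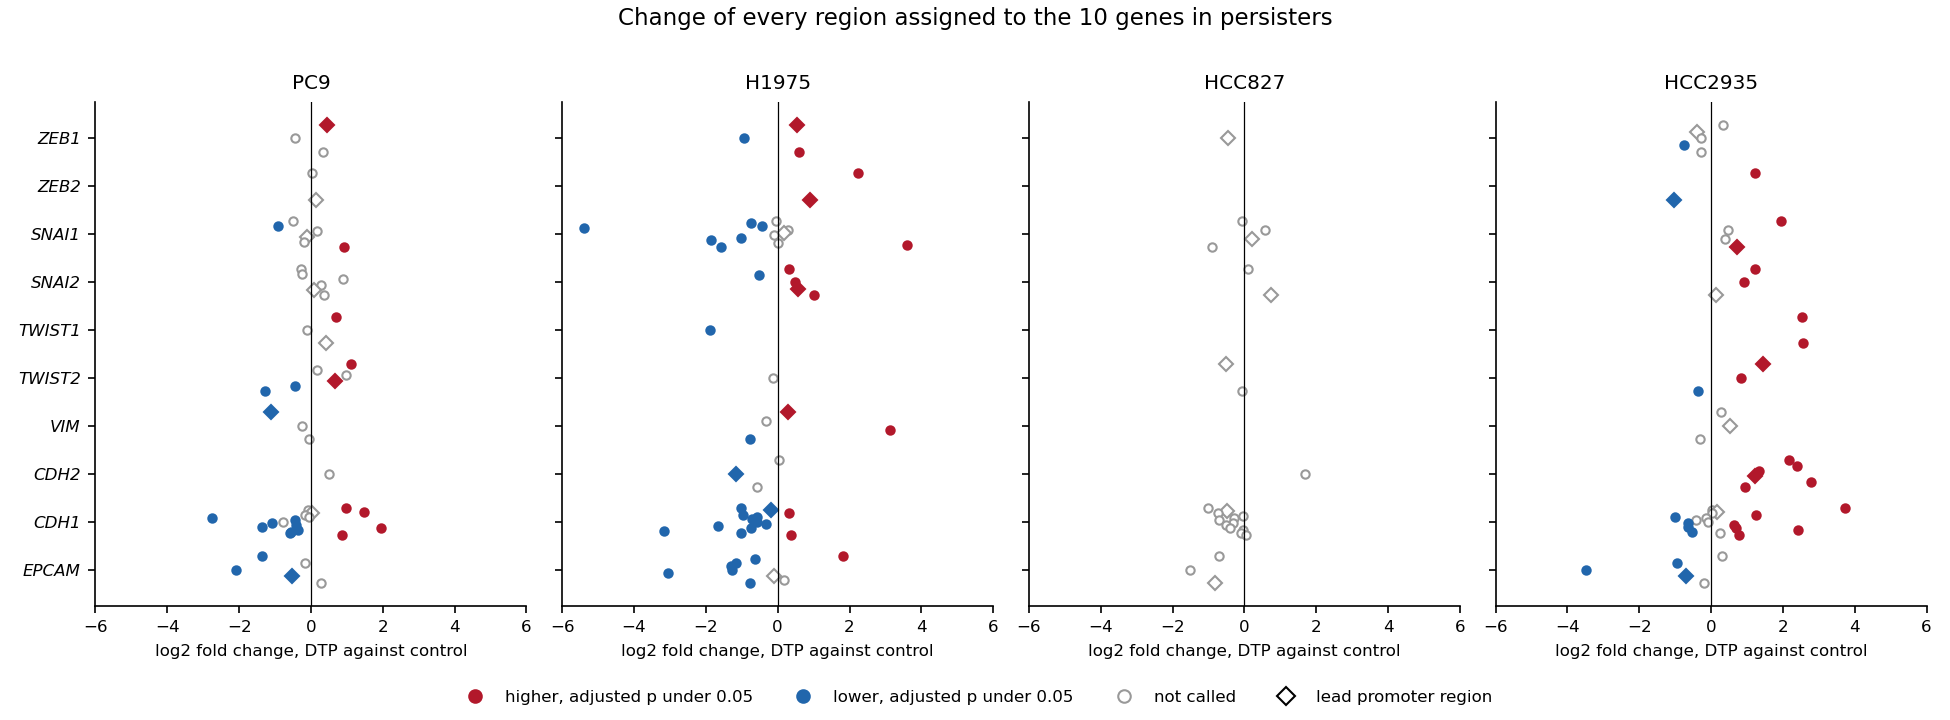
Log2 change from control to DTP (horizontal axis) of every member region, by gene (vertical axis) and line. Filled points are regions that passed the test. Most EPCAM and most CDH1 points lie below 0 in PC9 and H1975, and the 6 CDH2 points of HCC2935 lie between 0.95 and 2.78.

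Among the repressors, ZEB1 opened at its start site in PC9 and H1975 persisters. The region chr10:31318116-31318617 had 8.71, 9.01 and 8.31 CPM in H1975 control and 12, 12.9 and 12.7 CPM in DTP. In PC9 the matching region had 11.4, 11.2 and 11.1 CPM in control and 13.8, 15.3 and 16.7 CPM in DTP. All persister libraries lay above all control libraries in both lines. The log2 change was 0.53 (SE 0.13, edgeR adjusted p = 0.000142) in H1975 and 0.44 (SE 0.15, edgeR adjusted p = 0.0127) in PC9. The calls were lost with summed libraries (edgeR adjusted p = 0.0804 in H1975 and 0.23 in PC9), and the PC9 call also in DESeq2 (adjusted p = 0.0827). In HCC2935 the start region had 4.63, 3.49 and 2.63 CPM in control and 4.43, 5.25 and 4.21 CPM in DTP, with overlapping groups. In HCC827 it had 8.78, 9.98 and 11.3 CPM in control and 5.54, 6.53 and 9.66 CPM in DTP, again with overlap, and neither line passed.

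Within ZEB1 the regions did not move together. A promoter-annotated region near an inner transcript start, chr10:31353493-31353994, had 10.6, 8.53 and 6.75 CPM in H1975 control and 3.89, 4.36 and 5.09 CPM in DTP, a log2 change of -0.93 (SE 0.16, edgeR adjusted p = 1.89e-07), while the start region rose. In HCC2935 an intronic region, chr10:31390705-31391206, fell from 18.7, 16.7 and 17.6 CPM to 10.6, 12.3 and 8.57 CPM (log2 change -0.75, SE 0.17, edgeR adjusted p = 0.000313). It was the highest ZEB1 region of that line.

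ZEB2, the paralogue of ZEB1, rose at an exonic region in 2 lines. In H1975, chr2:144427041-144427542 had 0.968, 1.44 and 0.843 CPM in control and 4.69, 6.59 and 4.29 CPM in DTP, with no overlap. The log2 change was 2.24 (SE 0.27, edgeR adjusted p = 3.11e-14). In HCC2935 the overlapping region had 7.77, 9.48 and 5.00 CPM in control and 17.9, 17 and 18 CPM in DTP, a log2 change of 1.23 (SE 0.18, edgeR adjusted p = 3.91e-07). The bins around ZEB2 were shifted upwards, by a median of 0.77 in H1975 and 0.41 in HCC2935. With the bin median removed the exonic changes were 1.53 and 0.78 and still passed. The H1975 lead promoter of ZEB2 rose from 1.66, 2.28 and 1.81 CPM to 3.66, 3.95 and 3.30 CPM (log2 change 0.91), but its change was 0.19 once the bin median was removed (edgeR adjusted p = 0.546). The HCC2935 lead promoter fell from 2.59, 4.99 and 7.37 CPM to 2.85, 1.24 and 3.07 CPM (log2 change -1.02, SE 0.34, edgeR adjusted p = 0.0137), with overlapping groups, and DESeq2 did not call it (adjusted p = 0.0588). In PC9, ZEB2 had no called region.

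SNAI1 changed in opposite directions on either side of its start in H1975. The region 6.22 kb before the RefSeq start had 7.19, 8.89 and 7.59 CPM in control and 0.114, 0.101 and 0.300 CPM in DTP. The region 6.52 kb after the start had 0.277, 0.240 and 0.482 CPM in control and 4.00, 3.85 and 4.79 CPM in DTP. The log2 changes were -5.39 (SE 0.34) and 3.60 (SE 0.36), with levels near zero on the low side that rest on a few reads per library. Over the 12 SNAI1 regions of H1975, 1 was higher and 6 lower. The lead promoter itself did not pass there, with 13, 12.6 and 9.88 CPM in control and 15, 12.6 and 12.7 CPM in DTP.

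In HCC2935 the SNAI1 lead promoter had 5.37, 9.23 and 9.21 CPM in control and 11.7, 13 and 13.3 CPM in DTP. It rose by 0.71 on the log2 scale (SE 0.20, edgeR adjusted p = 0.0045), in a bin whose median rose by 0.35, and with that median removed the change was 0.37 and did not pass (adjusted p = 0.162). A distal region, chr20:49968757-49969258, rose from 1.11, 0.998 and 1.05 CPM to 5.06, 3.31 and 4.04 CPM (log2 change 1.94, SE 0.38, edgeR adjusted p = 6.03e-05). The region at the same place fell in H1975, from 4.43, 4.57 and 4.82 CPM to 2.29, 3.95 and 2.00 CPM (log2 change -0.74, SE 0.21).

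SNAI2, the Slug repressor, was higher in 4 of 5 regions and lower in 1 in H1975. The higher call at a distal region ended with the bin median removed (edgeR adjusted p = 0.0633). Its lead promoter had 11.5, 13.7 and 12.4 CPM in control and 16.4, 19.5 and 19.5 CPM in DTP, without overlap (log2 change 0.56, SE 0.11, edgeR adjusted p = 2.1e-06). In PC9 none of its 6 regions passed, and the lead promoter had 9.15, 9.94 and 10.5 CPM in control and 10.5, 9.93 and 11.2 CPM in DTP. In HCC2935, 2 of 3 regions were called higher, both in a bin with a median of 0.44, and neither passed with that median removed.

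TWIST1 and TWIST2 rose in HCC2935. Both regions assigned to TWIST1 in that line were intronic. The region chr7:19080027-19080528 had 0.740, 0.25 and 2.10 CPM in control and 7.43, 5.80 and 4.53 CPM in DTP (log2 change 2.56, SE 0.38, edgeR adjusted p = 3.14e-07). Its neighbour had 0.555, 0.25 and 1.32 CPM in control and 4.74, 3.59 and 3.72 CPM in DTP (log2 change 2.52, SE 0.43, edgeR adjusted p = 6.07e-06). In both, every DTP library lay above every control library. In H1975 the only TWIST1 region, another intronic one, fell from 6.78, 6.97 and 7.83 CPM to 1.72, 2.33 and 1.80 CPM (log2 change -1.87, SE 0.21, edgeR adjusted p = 9.63e-16). PC9 had a region at that same place, with 7.12, 4.87 and 5.36 CPM in control and 5.45, 4.55 and 5.62 CPM in DTP, which did not pass. Another intronic region of PC9, near those of HCC2935, rose from 4.07, 4.06 and 3.97 CPM to 5.84, 8.69 and 5.22 CPM (log2 change 0.70, SE 0.24, edgeR adjusted p = 0.014). This call was lost with summed libraries (edgeR adjusted p = 0.18), in DESeq2 (adjusted p = 0.102) and with the bin median removed (edgeR adjusted p = 0.0728). The PC9 region overlapping the first HCC2935 one, which is in the full table only and so no member, rose from 0.763, 0.203 and 1.39 CPM to 3.89, 4.55 and 2.21 CPM (log2 change 2.13, SE 0.42, edgeR adjusted p = 5.51e-06).

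The TWIST2 lead promoter of HCC2935, which spans the window printed above, had 1.67, 3.24 and 3.95 CPM in control and 5.85, 8.84 and 8.41 CPM in DTP. The groups did not overlap, and the log2 change was 1.45 (SE 0.28, edgeR adjusted p = 4.23e-05). In PC9 the lead promoter had 4.32, 3.04 and 1.79 CPM in control and 5.06, 4.35 and 4.82 CPM in DTP, a log2 change of 0.68 (SE 0.28, edgeR adjusted p = 0.0446) that neither DESeq2 (adjusted p = 0.152) nor the summed libraries (edgeR adjusted p = 0.226) called. The highest TWIST2 region in every line was intronic. It fell in PC9 from 41.7, 44.6 and 39.9 CPM to 33.7, 31.5 and 28.1 CPM (log2 change -0.44) and in HCC2935 from 28.5, 28.5 and 23.9 CPM to 20.6, 23.6 and 18.8 CPM (log2 change -0.36), while the lead promoter rose. The HCC2935 fall was called neither in DESeq2 nor with summed libraries or the bin median removed, and the PC9 fall not with summed libraries. In bulk cells, a change in the share of cells with an open region and a change in openness per cell cannot be told apart, and this holds for every value given here.

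Among the epithelial genes, EPCAM lost accessibility most at an intronic region 8.18 kb before its RefSeq start, chr2:47360878-47361379 in PC9. In PC9 it had 7.63, 5.68 and 7.54 CPM in control and 1.95, 1.45 and 1.41 CPM in DTP. In H1975 it had 22.0, 20.6 and 22.4 CPM in control and 2.40, 2.84 and 2.50 CPM in DTP. In HCC2935 it had 10.2, 3.99 and 11.6 CPM in control and 0.474, 0.828 and 0.970 CPM in DTP. Every DTP library lay below every control library in these 3 lines. The log2 changes were -2.09 (SE 0.29, edgeR adjusted p = 7.37e-11), -3.06 (SE 0.15, edgeR adjusted p = 3.26e-55) and -3.47 (SE 0.37, edgeR adjusted p = 6.92e-11). In HCC827 it had 17.9, 8.38 and 15 CPM in control and 5.54, 5.44 and 3.60 CPM in DTP, also without overlap, with a log2 change of -1.53 (SE 0.48). This did not pass in edgeR (adjusted p = 0.342) and passed with the replicate block (adjusted p = 0.0151).

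The EPCAM lead promoter changed less. It had 22.4, 21.3 and 25.3 CPM in PC9 DTP (log2 change -0.52, SE 0.10, edgeR adjusted p = 5.14e-06) and 19.4, 22.8 and 22.5 CPM in HCC2935 DTP (log2 change -0.71, SE 0.12, edgeR adjusted p = 5.1e-06), in both below all control libraries. In H1975 it had 21.4, 20.9 and 19.3 CPM in DTP, which overlapped the control. The single EPCAM region called higher was in H1975, chr2:47345470-47345971, promoter-annotated, with 1.24, 0.841 and 1.33 CPM in control and 4.69, 3.34 and 4.19 CPM in DTP (log2 change 1.83, SE 0.28, edgeR adjusted p = 2.13e-09). A further intronic region, 14.5 kb before the start, was also lower in PC9 (log2 change -1.35), H1975 (-1.16) and HCC2935 (-0.94), the last of these not once the bin median was removed (edgeR adjusted p = 0.0952), with summed libraries (edgeR adjusted p = 0.0716) or in DESeq2 (adjusted p = 0.113). Of the 19 places with a region in all 4 tables, 3 were called lower in PC9, H1975 and HCC2935, namely these EPCAM introns and an inner CDH1 region, and none was called higher in all 3. By the sign of the change alone, 8 of the 19 were lower in all 4 lines, 3 were higher in all 4 and 8 were mixed.

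The E-cadherin gene CDH1 had its larger falls inside the gene rather than at its start. The lead promoter had 20.2, 21.7 and 19.5 CPM in PC9 DTP (log2 change 0.03, SE 0.12) and 22.0, 27.3 and 28.6 CPM in HCC2935 DTP (log2 change 0.17, SE 0.13), overlapping the controls in both. In H1975 it had 26.0, 28.1 and 29.0 CPM, below all control libraries, with a log2 change of -0.19 (SE 0.08, edgeR adjusted p = 0.0338). That call was not made in DESeq2 (adjusted p = 0.146), with summed libraries (edgeR adjusted p = 0.396) or with the bin median removed (change -0.09, edgeR adjusted p = 0.423). In HCC827 it had 10.6, 16.9 and 27.9 CPM, within a wide spread.

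The inner CDH1 region 23.7 kb after the RefSeq start, annotated to the promoter of a shorter transcript, was lower in 3 lines. In H1975 it had 34.9, 32.2 and 32.3 CPM in control and 10.6, 11 and 9.69 CPM in DTP. In PC9 it had 8.90, 8.11 and 12.3 CPM in control and 3.31, 3.52 and 4.62 CPM in DTP. In HCC2935 it had 23.9, 15.5 and 20.8 CPM in control and 14.1, 13.9 and 10.8 CPM in DTP. The groups did not overlap in any of these lines, and the log2 changes were -1.66 (SE 0.10, edgeR adjusted p = 1.2e-41), -1.36 (SE 0.22, edgeR adjusted p = 1.08e-08) and -0.64 (SE 0.16, edgeR adjusted p = 0.00151). In HCC827 the change was -0.51 (SE 0.39) and did not pass.

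**Figure D3:**
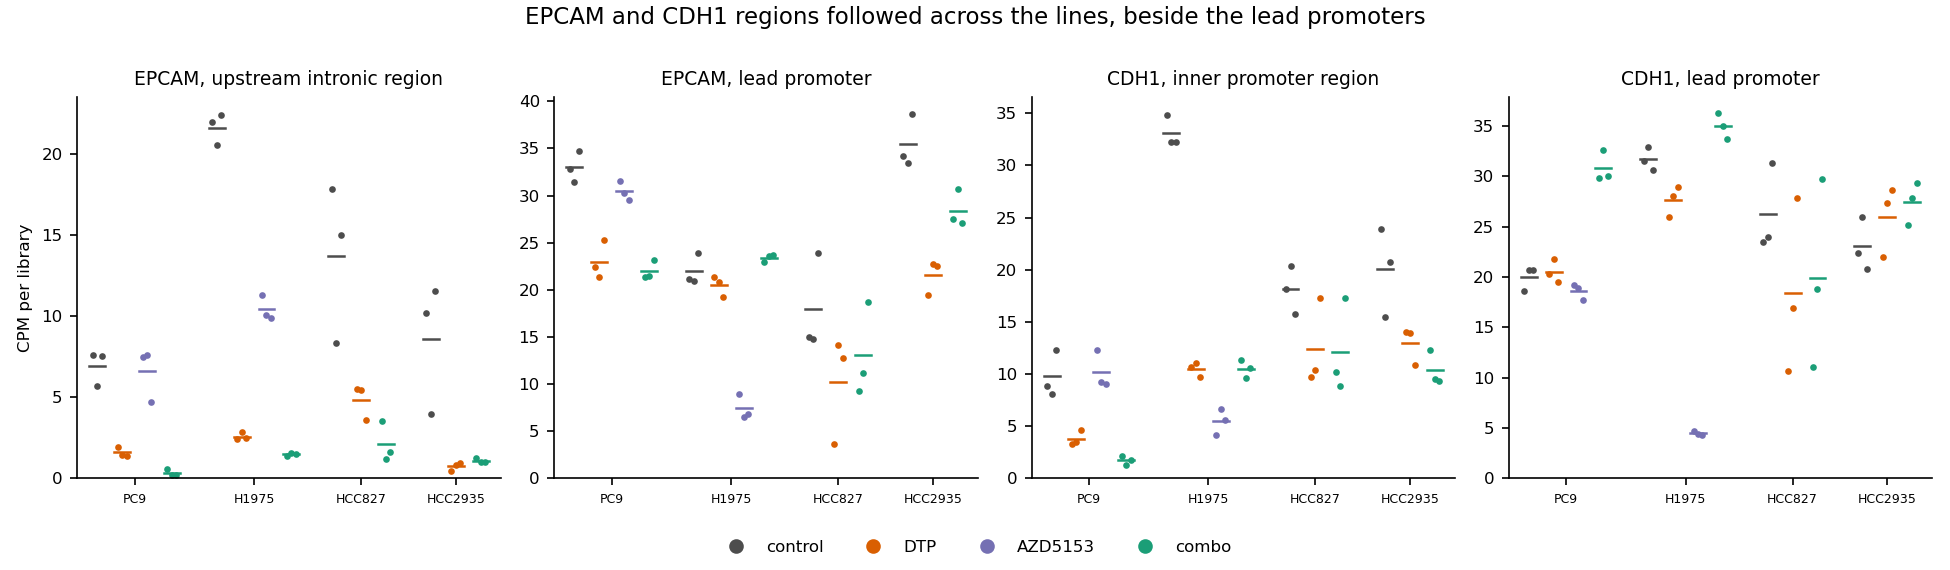
CPM (vertical axis) of the EPCAM intronic region upstream of the start, the inner CDH1 region and the lead promoters of both genes in each line and group (horizontal axis), with dots for the 3 libraries and bars for means. The EPCAM intronic region falls to between 0.474 and 5.54 CPM in DTP cells of the 4 lines, while the CDH1 lead promoter of PC9 stays between 19.5 and 21.7 CPM.

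The CDH1 regions not annotated to a promoter lay both within the gene and before its start. In H1975 all 9 of them were lower in DTP cells, from -3.16 to -0.32 on the log2 scale. In PC9, 2 of 11 such regions were higher and 6 lower, and in HCC2935 4 of 10 were higher and 2 lower. The largest falls were at a region 5.6 kb after the start in PC9, from 5.09, 7.10 and 6.75 CPM to 0.779, 0.621 and 1.41 CPM (log2 change -2.74, SE 0.34), and at one 41.8 kb after it in H1975, from 12.7, 12.5 and 11.8 CPM to 1.37, 1.22 and 1.5 CPM (log2 change -3.16, SE 0.20). The highest distal region of the gene, 19.2 kb after the start, was lower in PC9 (log2 change -0.43) and H1975 (-0.32) and did not pass in HCC2935 (-0.07).

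Some CDH1 regions opened. A region 8.57 kb before the start in PC9 rose from 2.54, 3.04 and 2.58 CPM to 5.45, 3.93 and 6.63 CPM (log2 change 0.96, SE 0.27, edgeR adjusted p = 0.00266). In HCC2935 the matching region rose from 0.185, 0.499 and 0.526 CPM to 6.64, 4.14 and 5.01 CPM (log2 change 3.71, SE 0.49, edgeR adjusted p = 1.68e-08), and the groups did not overlap in either line. The PC9 call was lost with summed libraries (edgeR adjusted p = 0.059). A region 27.8 kb after the start rose in PC9 from 0.763, 1.62 and 0.992 CPM to 4.28, 4.97 and 4.22 CPM (log2 change 1.94, SE 0.36).

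**Figure D4:**
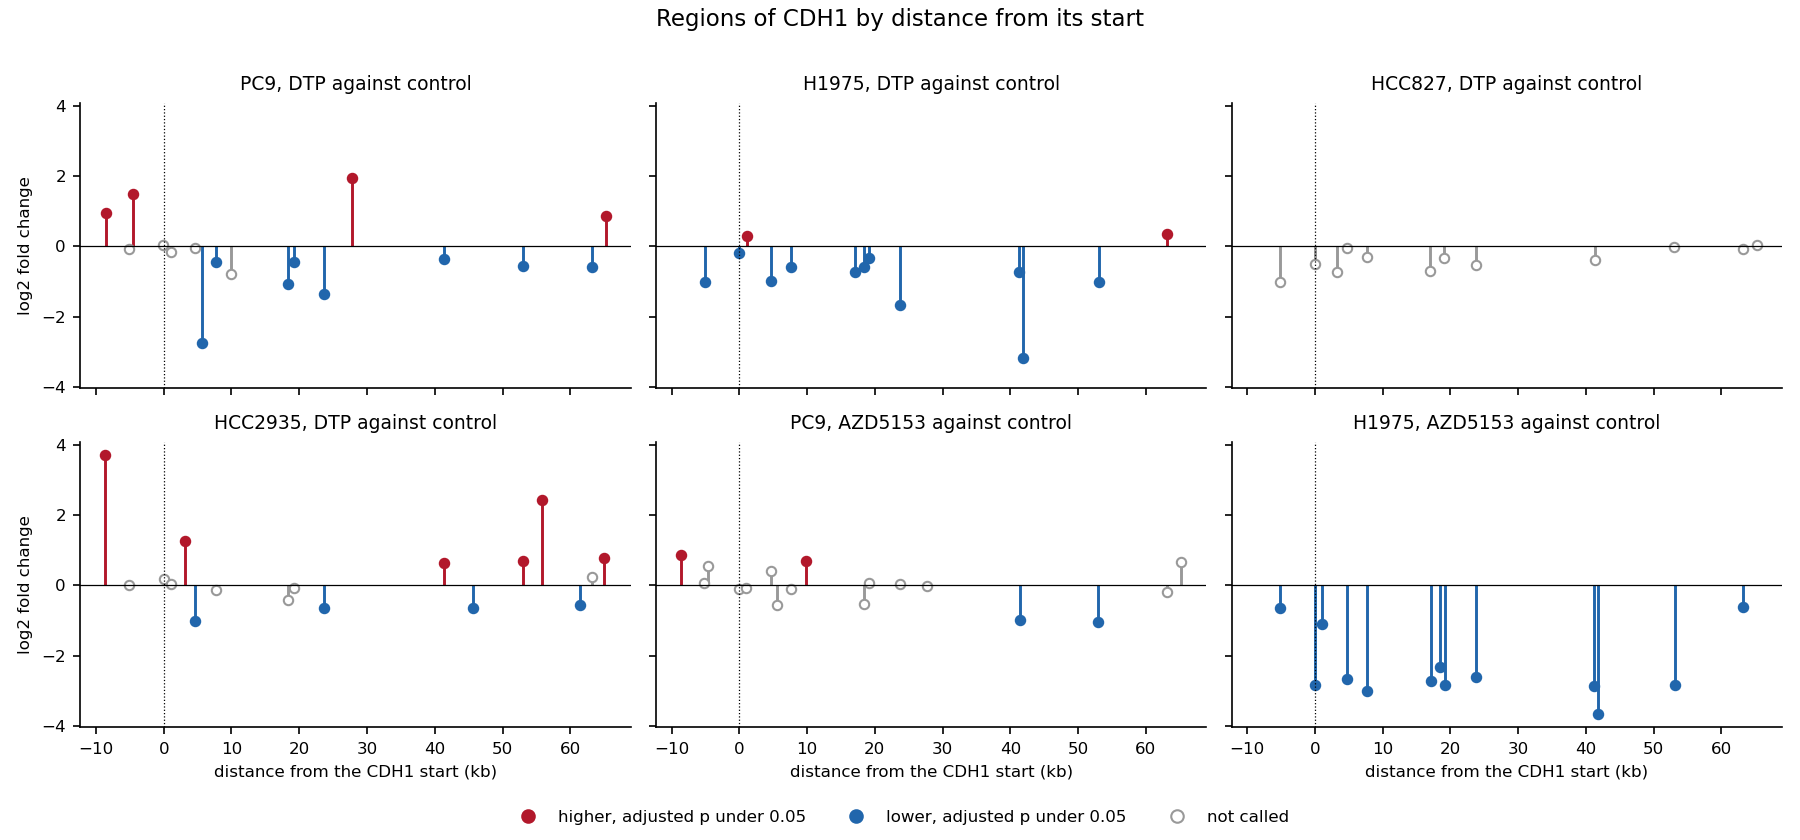
Log2 change (vertical axis) of each CDH1 region against its distance in kb from the RefSeq start (horizontal axis). Panels show DTP against control in each line, and AZD5153 against control in PC9 and H1975. Filled points are regions that passed the test. In H1975 DTP cells all 9 intronic and distal regions lie below 0, and in HCC2935 DTP cells the points lie on both sides, from -1.01 to 3.71.

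Among the mesenchymal genes, the VIM start region moved in opposite directions in 2 lines. In PC9 it fell from 9.66, 11.8 and 11.5 CPM to 5.65, 4.55 and 5.02 CPM (log2 change -1.12, SE 0.20, edgeR adjusted p = 2.85e-07). In H1975 it had 9.68, 9.01 and 9.40 CPM in control and 10.9, 11.8 and 11.7 CPM in DTP (log2 change 0.29, SE 0.13, edgeR adjusted p = 0.0429). Neither pair of groups overlapped. The H1975 call was lost in DESeq2 (adjusted p = 0.0978) and with summed libraries (edgeR adjusted p = 0.355). In a fit over both lines the difference of the changes was 1.38 (SE 0.23, edgeR adjusted p = 1.7e-07). In HCC2935 no VIM region passed. A distal VIM region of H1975, chr10:17238662-17239163, rose from 0.277, 0.361 and 0.482 CPM to 3.43, 2.84 and 3.99 CPM (log2 change 3.13, SE 0.37, edgeR adjusted p = 4.68e-14).

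CDH2 was higher in all 6 of its regions in HCC2935 persisters, from 0.95 to 2.78 on the log2 scale, in a line where 18.4% of all tested regions were called higher. The lead promoter, which holds most of the printed window, had 1.30, 2.25 and 2.10 CPM in control and 4.11, 4.42 and 4.37 CPM in DTP (log2 change 1.23, SE 0.33, edgeR adjusted p = 0.00253). The region just upstream of it had 0.740, 0 and 1.05 CPM in control and 2.85, 5.38 and 4.53 CPM in DTP (log2 change 2.78, SE 0.46, edgeR adjusted p = 3.35e-06). No DTP library of either region overlapped the controls. The most upstream of the 3 promoter regions lost its call with summed libraries (edgeR adjusted p = 0.0881) and with the bin median removed (adjusted p = 0.0555). Of 7 fibroblast markers 4 had a promoter region in this line and 2 of them were called higher, with a summed level of 34.4 to 35.9 CPM in control and 51.7 to 52.4 CPM in DTP. Their part in the CDH2 result was not tested.

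In H1975, 1 of 3 CDH2 regions was called lower and none higher. The lower one was the lead promoter, at an inner transcript start and so at another place than that of HCC2935. It had 6.64, 8.17 and 5.90 CPM in control and 2.86, 3.34 and 3.00 CPM in DTP (log2 change -1.17, SE 0.19, edgeR adjusted p = 1.78e-08). The H1975 regions near the CDH2 RefSeq start, at 0.120 to 0.692 CPM in control, did not pass the count filter. The distal region chr18:27921957-27922458 of HCC827 rose from 2.19, 3.19 and 3.95 CPM to 12, 5.99 and 12.1 CPM (log2 change 1.69, SE 0.51), without overlap. It was the other region of HCC827 to pass with the replicate block (adjusted p = 0.017) and not without it (edgeR adjusted p = 0.317). The matching region had a log2 change of 2.18 (SE 0.47) in HCC2935, where it passed, and of 0.49 in PC9 and 0.04 in H1975, where it did not.

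**Figure D5:**
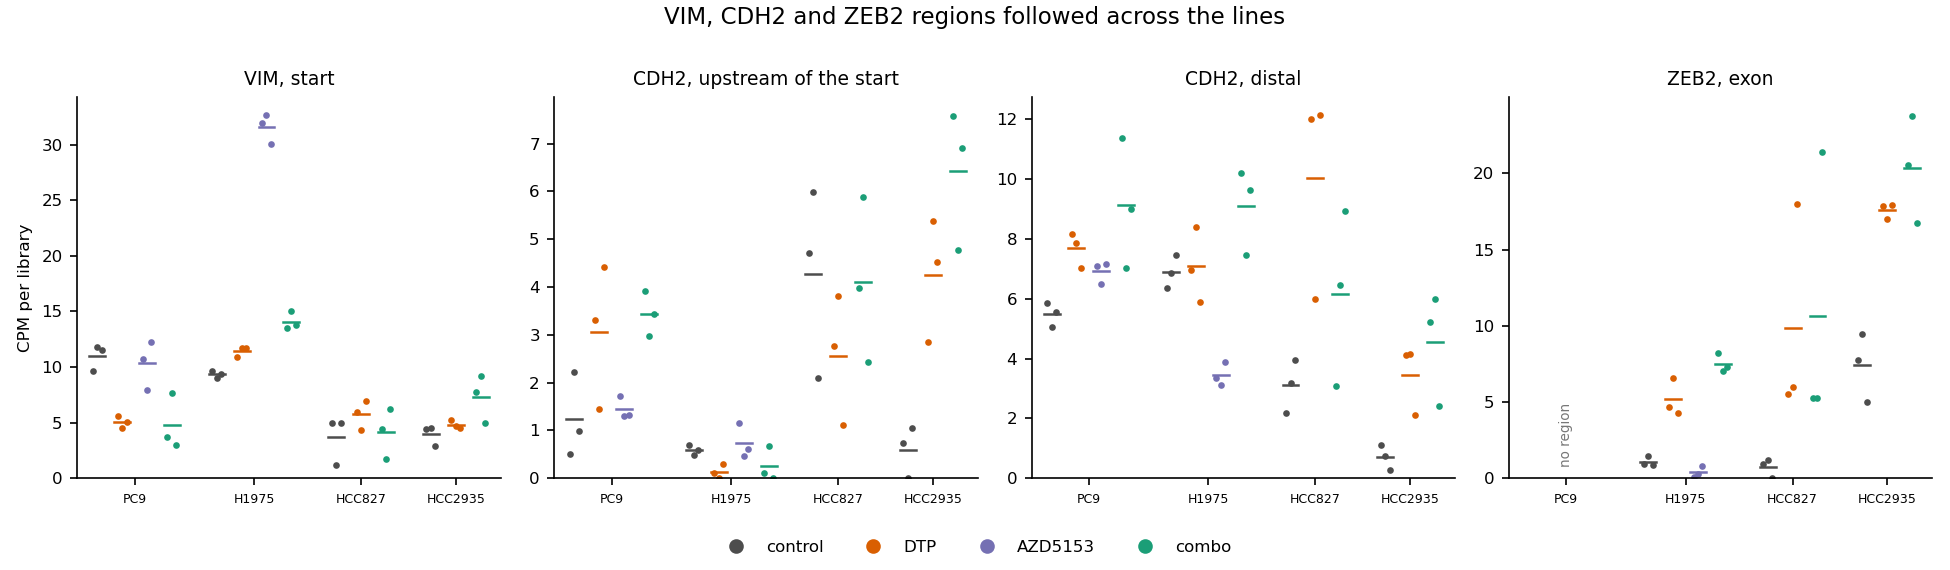
CPM (vertical axis) of the VIM start region, the CDH2 region upstream of the start, the distal CDH2 region and the ZEB2 exonic region in each line and group (horizontal axis), with dots for the 3 libraries and bars for means. The VIM start region of PC9 falls to 4.55 to 5.65 CPM in DTP, while the HCC2935 region upstream of the CDH2 start rises to between 2.85 and 5.38 CPM.

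PC9 and H1975 persisters were compared in a fit over both lines, in which 25.7% of 133011 matched regions differed in their change. Of the member regions, 13 differed, a smaller share than among all matched regions. Bin medians were not removed in this fit, and fewer member regions differed with summed libraries. H1975 fell further than PC9 at the EPCAM intronic region (difference -0.99, SE 0.39, edgeR adjusted p = 0.0456). It fell less at the EPCAM lead promoter (difference 0.39, SE 0.14, edgeR adjusted p = 0.0236). The TWIST1 intronic region had a difference of -1.78 (SE 0.32). For the ZEB1 start the difference was 0.06 (SE 0.20, edgeR adjusted p = 0.863), so the rises in both lines were not told apart.

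The addition of AZD5153 to persisters was read from combo against DTP. As the labels do not state whether osimertinib was kept on, AZD5153 and a stop of osimertinib cannot be told apart in this comparison. In PC9, 15 of 52 regions passed (9 higher, 6 lower) against 22.3% of all tested regions (10.7% higher, 11.6% lower), and in H1975 16 of 53 (15 higher, 1 lower) against 21.1% (11.5% higher, 9.51% lower). In HCC2935, 4 of 50 passed (2 higher, 2 lower) against 8.53% (2.44% higher, 6.09% lower). In HCC827 edgeR called 0 of 25 regions and 0.0% of all tested regions, and none had an unadjusted p under 0.05. With summed libraries the calls fell to 1 in PC9, 0 in H1975 and 2 in HCC2935, so most of these calls were not made when each group was 1 sample.

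The CDH1 lead promoter was higher in combo. In PC9 it rose from 20.2, 21.7 and 19.5 CPM to 29.8, 32.6 and 30.0 CPM (log2 change 0.59, SE 0.11, edgeR adjusted p = 1.66e-06), and in H1975 from 26.0, 28.1 and 29.0 CPM to 36.2, 35.0 and 33.7 CPM (log2 change 0.33, SE 0.08, edgeR adjusted p = 0.000328). The groups did not overlap in either line. The CDH1 calls of both lines were lost with summed libraries. The median over all lead promoters in this comparison was 0.13 in PC9 and 0.19 in H1975. In HCC2935 the CDH1 lead promoter did not pass, and EPCAM rose from 19.4, 22.8 and 22.5 CPM to 27.5, 30.7 and 27.1 CPM (log2 change 0.40, SE 0.12, edgeR adjusted p = 0.0228). The EPCAM call was also lost with summed libraries.

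The EPCAM intronic region went lower still in combo. It had 0.588, 0.213 and 0.214 CPM in PC9 combo (log2 change -2.14, SE 0.60, edgeR adjusted p = 0.00362) and 1.41, 1.56 and 1.5 CPM in H1975 combo (log2 change -0.79, SE 0.27, edgeR adjusted p = 0.0239), below all DTP libraries in both. In HCC827 it had 3.53, 1.18 and 1.62 CPM, also below the DTP libraries, and did not pass. In HCC2935 it had 1.26, 0.981 and 1.04 CPM and did not pass. The inner CDH1 region fell further in PC9, to 2.15, 1.28 and 1.71 CPM (log2 change -1.13, SE 0.33, edgeR adjusted p = 0.00554). It had 12.3, 9.56 and 9.32 CPM in HCC2935 combo and passed in no line other than PC9, and the difference between the lines was not tested. With summed libraries the PC9 call at this CDH1 region and the H1975 call at the EPCAM region were lost. In HCC2935 a CDH1 region 61.4 kb after the start fell from 16.9, 17.5 and 20.2 CPM to 5.22, 6.38 and 5.01 CPM (log2 change -1.70, SE 0.17, edgeR adjusted p = 6.51e-10), having been 21.5, 29.7 and 29.5 CPM in control.

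Of the regulators, the TWIST2 lead promoter rose in PC9 combo to 9.99, 7.88 and 9.43 CPM from 5.06, 4.35 and 4.82 CPM (log2 change 0.94, SE 0.21, edgeR adjusted p = 0.000139). The ZEB1 start region did not pass in any line, with 14.3, 13.6 and 14.6 CPM in PC9 combo and 13.5, 14.3 and 15 CPM in H1975 combo. A distal SNAI1 region of H1975 rose from 2.29, 3.95 and 2.00 CPM to 5.74, 5.12 and 5.22 CPM (log2 change 0.95, SE 0.20). In HCC2935 an intronic CDH2 region rose from 3.16, 3.04 and 2.43 CPM to 6.16, 5.52 and 5.52 CPM (log2 change 0.98, SE 0.27, edgeR adjusted p = 0.0132), so that it was higher in combo than in DTP and in DTP than in control. The TWIST2, SNAI1 and CDH2 calls given here for combo were lost with summed libraries.

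AZD5153 alone, against control, was measured in PC9 and H1975. In PC9, 12 of 52 regions passed (9 higher, 3 lower), against 25.8% of all tested regions (11.3% higher, 14.5% lower). The largest rise was at the EPCAM intron 14.5 kb before the start, from 3.56, 2.84 and 3.97 CPM to 9.22, 11.5 and 12.2 CPM (log2 change 1.66, SE 0.21, edgeR adjusted p = 1.43e-12). A TWIST1 intronic region rose from 7.12, 4.87 and 5.36 CPM to 12.3, 12.8 and 13.2 CPM (log2 change 1.16, SE 0.18). The largest fall was in a CDH1 intron, chr16:68790008-68790509, from 20.6, 17.6 and 17.3 CPM to 8.45, 7.80 and 10.7 CPM (log2 change -1.03, SE 0.15). Of the lead promoters ZEB1 alone passed, at 17.1, 17.8 and 13.4 CPM (log2 change 0.52, SE 0.14, edgeR adjusted p = 0.00249). This ZEB1 call was lost with summed libraries.

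In H1975, 47 of 53 regions passed in the libraries labelled AZD5153 (15 higher, 32 lower), against 58.2% of all tested regions (26.7% higher, 31.5% lower), and these are the libraries that stood apart. All 13 CDH1 regions were lower, from -3.66 to -0.63 on the log2 scale. The CDH1 lead promoter had 4.73, 4.36 and 4.28 CPM against 31.5, 32.9 and 30.6 CPM in control (log2 change -2.83, SE 0.12). EPCAM had 9.0, 6.53 and 6.83 CPM (log2 change -1.55, SE 0.12), and VIM rose to 31.9, 32.7 and 30.1 CPM (log2 change 1.75, SE 0.10). The CDH2 lead promoter had 0.461, 0.622 and 0.204 CPM (log2 change -4.06, SE 0.31), while a CDH2 intron rose from 2.21, 2.40 and 3.37 CPM to 12.7, 11.2 and 12.6 CPM (log2 change 2.19, SE 0.17). In the H1975 combo libraries, which also had AZD5153, the CDH1 lead promoter stood at 33.7 to 36.2 CPM and VIM at 13.5 to 15 CPM.

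The change from DTP to combo was set against the change from control to AZD5153, and the difference of both changes was tested. A stop of osimertinib in combo, on which the labels are silent, cannot be told apart from AZD5153 in this difference. In PC9, 11 regions passed (5 higher, 6 lower) against 13.8% of all tested regions (7.31% higher, 6.45% lower), and with summed libraries 1 did. In H1975, 38 passed (29 higher, 9 lower) against 42.6% (24.4% higher, 18.2% lower), all of them resting on the libraries that stood apart.

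Genes of the same programme outside the 10 were counted at their lead promoters in DTP against control, from lists set with earlier results of these data known. Of all lead promoters 49.6% were called in H1975 (19.3% higher, 30.3% lower), 34.0% in HCC2935 (21.4% higher, 12.7% lower), 26.1% in PC9 (13.4% higher, 12.8% lower) and 0.00926% in HCC827. Of the 10 genes themselves, 2 were higher and 2 lower of 9 in PC9, 4 higher and 2 lower of 8 in H1975, and 3 higher and 2 lower of 9 in HCC2935. Other mesenchymal genes were 3 higher and 3 lower of 11 in PC9, 3 higher and 6 lower of 10 in H1975, and 6 higher and 0 lower of 10 in HCC2935. Their median was 0.74 in HCC2935 (0.10 over all genes), 0.07 in PC9 (0.02), -0.27 in H1975 (-0.05) and -0.10 in HCC827 (0.11). These list values are given without removal of the bin medians. Other epithelial genes were 1 higher and 2 lower of 18 in PC9, 2 higher and 9 lower of 18 in H1975, and 2 higher and 1 lower of 18 in HCC2935. Other transition factors were 0 higher and 0 lower of 7 in PC9, 3 higher and 1 lower of 6 in H1975, and 0 higher and 2 lower of 7 in HCC2935. In HCC827 none of the listed genes passed.

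Further genes of these lists changed at their lead promoters. The P-cadherin gene CDH3 fell in H1975 from between 26.4 and 27.1 CPM to between 2.40 and 2.63 CPM (log2 change -3.40, SE 0.14). In PC9, FBN1, which encodes fibrillin, rose by 1.18 on the log2 scale (SE 0.27), and the receptor kinase gene AXL fell by 1.21 on the log2 scale (SE 0.20). In HCC2935 the epithelial repressor gene OVOL2 fell by 1.05 on the log2 scale (SE 0.23). The 4 adherens junction partners had 1 lower in PC9, 3 in H1975 and 1 in HCC2935, and none higher.

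Of the miR-200 genes whose sequences are printed above, 3 of 5 had a lead promoter in PC9. The region of MIR200B fell by 0.61 and that of MIR141 by 0.42 on the log2 scale, while that of MIR200C changed by 0.54 and did not pass. The MIR200C region, chr12:6963512-6964013, spans the mature miR-200c sequence. The MIR141 region, chr12:6964937-6965438, lies downstream of the mature miR-141 sequence. Both carry a promoter annotation, and whether they are separate promoters was not tested. None of the 2 in H1975, the 2 in HCC827 and the 1 in HCC2935 passed.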

How the data were processed

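ATAC-seq read counts per region were analysed for 42 libraries. Per the labels, reads were aligned to hg38, and the submitters' processing notes list BWA 0.7.17, SAMtools 1.9, deepTools 3.4, MACS2 2.2.6, featureCounts 2.0.0 and ChIPseeker 1.29.1. The authors deposited raw counts per region for each line, without normalization, with an annotated subset, and peak lists per library whose -log10 q values were used to count peak calls. The extraction text of the labels describes a ChIP protocol, while titles and design give ATAC-seq, which was followed.

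Each full table was fitted with edgeR 4.0.16 (quasi-likelihood test, TMM factors, filterByExpr, R 4.3.3), over all groups of a line, and p-values were adjusted by Benjamini-Hochberg over all tested regions (126506 in PC9, 191202 in H1975, 82309 in HCC827, 154179 in HCC2935). Regions passed at an adjusted p under 0.05. CPM used TMM library sizes. PC9 and H1975 regions with a reciprocal overlap of 50% entered a joint fit. Regions named by a fixed rule were the lead promoter of each member and the highest distal regions of ZEB1, ZEB2, CDH1, CDH2 and VIM. To these came the largest called rise and fall among all members per line and comparison, among groups without overlap. Further regions were named outside these rules. The members and lists were chosen with earlier results of these data known. Same-numbered libraries of HCC827 deviated together (r = 0.26 to 0.83), so the fit with a replicate block is given there. Alternatives were DESeq2 1.42.0, other scalings, no filter, annotated regions only, summed libraries, removal of 10 Mb bin medians and each library left out. Scripts were tested on simulated data. Genome sequence of the regions was not used here. The values of 1 listed gene are not reported here.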

Additional observations from a re-analysis of the deposited data

Results flagged for a closer look

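The change with AZD5153 differed between persisters and untreated PC9 cells in 11 member regions, by the test of the difference itself (edgeR, adjusted p under 0.05), beside 13.8% of all tested regions. At lead promoters the difference was 0.70 for CDH1 (SE 0.16) and -0.62 for ZEB1 (SE 0.20, adjusted p = 0.0188), and the ZEB1 value did not pass with the bin median removed (adjusted p = 0.0669). In H1975, 38 regions differed beside 42.6% of all tested regions, among them the lead promoters of CDH2 (4.18), CDH1 (3.16), EPCAM (1.74), ZEB2 (-1.52), VIM (-1.45) and SNAI2 (-0.63). All the H1975 values rest on the libraries labelled AZD5153, which stood apart.

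The persister change differed between H1975 and PC9 in 13 member regions, a smaller share of the members tested than the 25.7% of all matched regions. The differences, H1975 minus PC9 on the log2 scale, were 1.38 at the VIM start, -0.96, -0.95, 1.53 and 0.91 at CDH1 regions, -3.20 and 2.91 at SNAI1 regions, -1.17 and -0.99 at EPCAM introns and 0.39 at the EPCAM lead promoter. They were -1.78 at the TWIST1 intron and 0.52 and -1.44 at distal SNAI2 regions. These SNAI1 regions were among the members in H1975 only and did not pass the count filter in PC9 by itself.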

How the results depend on the processing

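Counts of calls were recomputed under each alternative, and 162 stayed within 1.5 times of the value given while 28 did not. With summed libraries the calls were 11, 1, 4 and 1 in PC9 (DTP, combo against DTP, AZD5153, difference of changes), 27 and 0 in H1975 (DTP, combo), 4 and 1 in HCC827, 2 for combo in HCC2935 and 6 for H1975 minus PC9. The HCC827 calls took their spread from HCC2935, which varied within groups by up to 1.85 times the counting variance. HCC827 itself varied by up to 8.80 times, so this setting understates its spread. DESeq2 gave 6, 7 and 4 in PC9 (combo, AZD5153, difference of changes) and 6 and 2 for combo in H1975 and HCC2935. Without a filter there were 7 for the difference of changes in PC9 and 10 for combo in H1975, where library size scaling and annotated regions alone also gave 10. Annotated regions alone gave 7 for combo in HCC2935 (2 higher, 5 lower). With the replicate block there were 2 calls for DTP in HCC827 and 7 for combo in HCC2935. Without 1 library the ranges were 21 to 22, 8 to 12, 10 to 12 and 9 to 13 in PC9, 37 to 40, 10 to 15, 43 to 47 and 36 to 40 in H1975 (each in the order DTP, combo, AZD5153, difference), 0 to 0 in HCC827 and 25 to 28 and 2 to 6 in HCC2935. Combo calls fell most without combo replicate 2 (9) or 3 (8) in PC9, DTP replicate 3 (10) or combo replicate 3 (10) in H1975, and DTP replicate 2 or 3 (2 each) in HCC2935. The log2 change of each named region was also compared, counted once for each comparison and each alternative. No such value changed sign past its threshold, 130 lost a call, 25 gained one and 2777 did neither. The split for H1975 minus PC9 was 6 higher and 7 lower, 10 and 6 with library size scaling and 4 and 8 with DESeq2 size factors; for the H1975 difference of changes it was 29 and 9, and 29 and 13 with library size scaling, which moved the median of all regions by -0.23. The cause of these changes was not tested, apart from the smaller number of samples where libraries were summed or left out. HCC827 libraries held 1724680 to 4242868 counts and varied within groups by up to 8.80 times the counting variance, and the part of either in its few calls was not tested.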

Other observations

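Over the 10 treated groups, the genes whose lead promoter followed that of CDH1 most closely among 9902 genes with a lead promoter in all 4 tables were LLGL2 (r = 0.988), a cell polarity gene, ESRP1 (r = 0.987), an epithelial splicing regulator, and SPNS3 (r = 0.986). Each r is over 10 log2 changes that share controls within a line and is given with no test. Without the H1975 AZD5153 group the values were 0.936, 0.914 and 0.906 over 9 groups, and other genes came highest, with MIR181A1HG at 0.971. VIM had no lead promoter in all 4 tables, so no such genes were sought for it.

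A region just inside VIM, chr10:17228971-17229472 in H1975, was assigned to another symbol and so is not among the 180. It was picked after its values were seen. It had 1.24 to 2.05 CPM in H1975 control and 3.43 to 4.26 CPM in DTP (log2 change 1.27), and in HCC2935 0.555 to 0.998 CPM in control and 2.76 to 3.4 CPM in DTP (log2 change 2.02), without overlap in either line. Among regions outside the annotated tables, the HCC827 region at the ZEB2 exon had 0.940, 1.2 and 0 CPM in control and 5.54, 5.99 and 18 CPM in DTP, which did not pass (edgeR adjusted p = 0.168).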
